A study of Homo sapiens with 2 samples.

Results

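Genes of the Wnt pathway were compared between miR-95-overexpressing PC3 cells and PC3 cells overexpressing a control microRNA. Members were taken as every probe set whose annotated symbol names a Wnt ligand, a receptor, a secreted antagonist or a component of the cascade, and 51 of the 13864 genes with a symbol met this rule, each through 1 probe set. Of the 51, 2 are antisense RNAs (FZD10-AS1 and CSNK1G2-AS1) caught by their shared name and not protein components. PC3 is a cell line from a metastatic human prostate cancer that grows without androgen. Both derivatives overexpressed their small RNA stably and were grown in the same serum-containing medium, per the labels. Each was measured on 1 Affymetrix gene array, so values are given with neither replicate error nor test, and a difference between the cultures cannot be told apart from one between the conditions. The labels do not say whether each derivative was a pool or a single clone.

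Wnt proteins are secreted lipid-modified ligands that bind a Frizzled receptor together with the co-receptor LRP5 or LRP6. Without a ligand, a destruction complex of axin, APC, casein kinase 1 and glycogen synthase kinase 3 marks β-catenin for degradation. With a ligand, the complex is inhibited and β-catenin enters the nucleus, where it acts with TCF and LEF factors and BCL9 proteins. Some of the genes it switches on, such as AXIN2, RNF43, ZNRF3, NKD1 and DKK1, limit the pathway in turn, and in prostate cancer the pathway is known for its links to bone metastasis and androgen-independent growth.

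The agent that distinguishes the cultures is miR-95, encoded by MIR95 on chromosome 4 (GRCh38.p14, minus strand). The labels do not name an arm, so both mature sequences from RefSeq are shown, with the seed (bases 2 to 8) in capitals because it sets which messenger RNAs a microRNA pairs with. The 3p arm lies at chr4:8005312-8005333 and the 5p arm at chr4:8005347-8005367.
hsa-miR-95-3p: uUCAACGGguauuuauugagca
hsa-miR-95-5p: uCAAUAAAugucuguugaauu
A message paired with the 3p seed would hold CCGTTGA, and one paired with the 5p seed TTTATTG, written as DNA. The seeds differ, and no search of the members' messages for these sites was made here. No annotated probe set was assigned to MIR95, so its level was not measured.

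Values are log2 expression as deposited. Differences are miR-95 minus control after each array was centred on its median over genes (7.495 in miR-95 cells and 7.46 in control cells), which takes 0.035 off each deposited difference. A gene was called detected when it reached the median of either array, which held for 7081 genes. Over these, the median difference was -0.035 with a robust SD of 0.148. Probe sets of the same gene disagreed by a spread of 0.126 (68 detected genes with several probe sets), used below as a guide to measurement error that holds no variation between cultures. The PC3 and epithelial markers KRT8, KRT18, KRT19, EPCAM and VIM were all detected on both arrays, and the prostate markers KLK2 and KLK3 were below the detection rule on both. Of 19 markers of leukocytes, endothelium, fibroblasts and neuroendocrine cells, 9 had a probe set and 2 of these were detected, CD68 and KDR, at differences of 0.105 and 0.285. The fibroblast marker LUM, below the rule, read 6.04 in miR-95 cells and 7.33 in control cells. The part of other cells in any result was not tested.

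Of the 51 members, 26 were detected and 25 were not. Among the detected members the difference ran from -0.215 for the receptor FZD5 to 0.285 for the nuclear factor BCL9, with 14 positive, 12 negative and a median of 0.02. The robust SD of these 26 differences, which reflects the middle of a set, was 0.208, against 0.148 over all detected genes. A positive difference was thus held by 53.8% of the detected members, against 40.6% of all detected genes, and with the values as deposited by 57.7% of the members, against 49.4% of all detected genes. In bulk RNA, fewer cells with a transcript and less of it per cell cannot be told apart. None of the 26 reached 1.5-fold in either direction, where 0.395% of all detected genes lay past that limit upwards and 0.861% downwards. None reached a lower limit of 0.322 on the log2 scale either, which 8.46% of all detected genes passed in one direction or the other. This depended on the scaling, since BCL9 was just past that limit after loess (0.3236). It lay just short of it as deposited and after quantile normalization (0.32 in both). Of the 26, 13 lay within 1 probe-set spread of 0, and BCL9 alone lay beyond 2 such spreads.

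**Figure D1:**
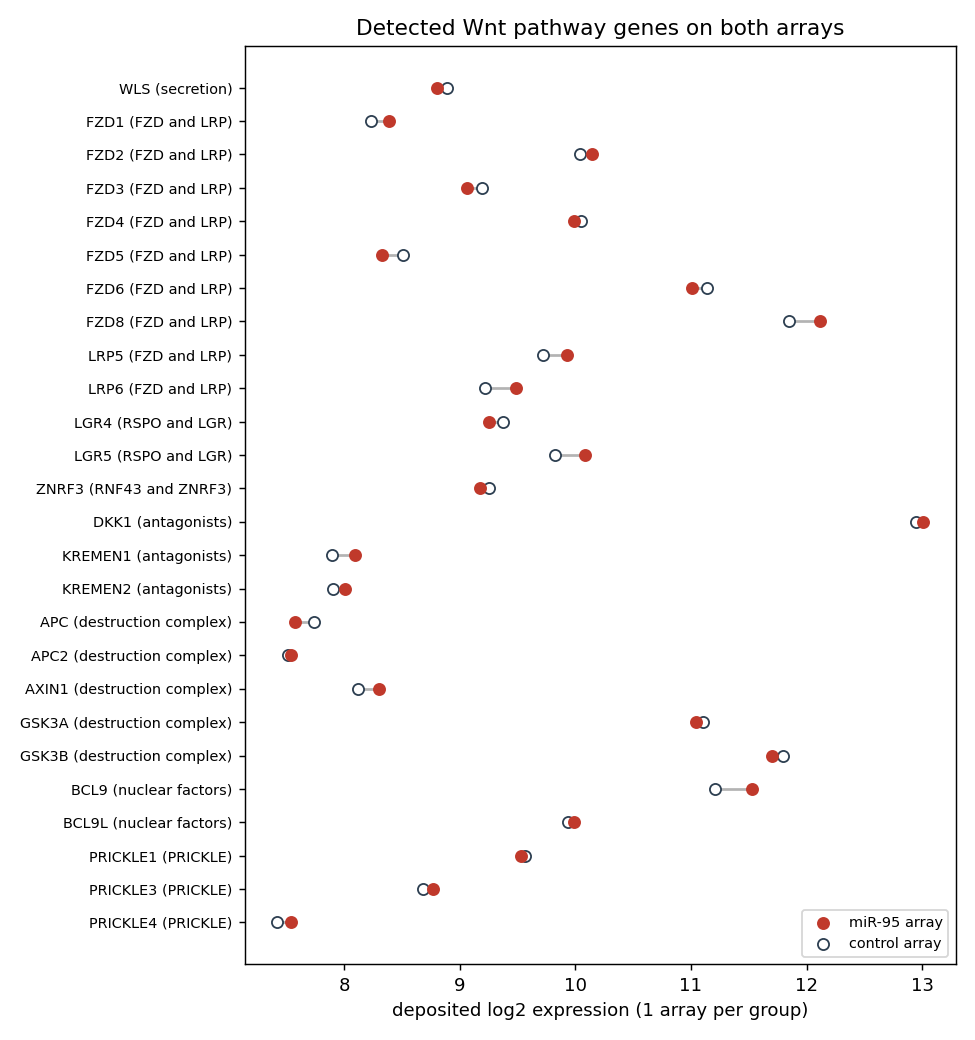
Deposited log2 expression of the 26 detected Wnt pathway genes on the miR-95 array (filled points) and the control array (open points), with the role of each gene in brackets. The pairs lie close together, and the widest gap is that of BCL9 (11.53 in miR-95 cells and 11.21 in control cells). Distances between genes reflect their probes and are not compared.

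The ligand side of the pathway was represented by 2 genes. WNT2, a secreted ligand that acts mainly through β-catenin, read 5.25 in miR-95 cells and 5.01 in control cells, both below the detection rule. It was the only ligand with an annotated probe set here, so the ligands made by these cells were not analysed. WLS, the carrier that takes lipid-modified Wnt proteins to the cell surface, read 8.80 in miR-95 cells and 8.89 in control cells. Its difference of -0.125 equals about 1 probe-set spread. PORCN, the acyltransferase that lipid-modifies the ligands, was not analysed.

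All 10 Frizzled receptors were measured and 7 were detected, of which 3 had positive and 4 negative differences. Of all detected genes, 40.6% had a positive difference. FZD8 gave the largest positive value among the Frizzled receptors. It read 12.12 in miR-95 cells and 11.85 in control cells, a 1.18-fold higher level after centring, and ranked 461st from the highest of the 7081 detected genes. Its closest relative FZD5 had the largest negative value. FZD5 read 8.33 in miR-95 cells and 8.51 in control cells, 1.16-fold lower after centring, and ranked 860th from the lowest. These paralogs, which form one subfamily of Frizzled proteins, thus lay at opposite ends of the family, 0.45 apart on the log2 scale. Values at least as far from 0 as that of FZD8 were held by 18.15% of detected genes, and for FZD5 by 21.31%, so neither was unusual among all genes.

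FZD3 and FZD6, paralogs known above all for planar cell polarity, had the same difference of -0.165 (1.12-fold lower). FZD3 read 9.06 in miR-95 cells and 9.19 in control cells, and FZD6 read 11.01 in miR-95 cells and 11.14 in control cells. In the subfamily of FZD1, FZD2 and FZD7, both detected members were positive. FZD1 read 8.39 in miR-95 cells and 8.23 in control cells, and FZD2 read 10.14 in miR-95 cells and 10.04 in control cells. Their differences were 0.125 and 0.065, within 1 probe-set spread. FZD4, the receptor for norrin as well as for Wnt ligands, read 9.99 in miR-95 cells and 10.05 in control cells, a difference of -0.095. The remaining members, FZD7, FZD9 and FZD10, were below the detection rule, with differences from -0.055 for FZD9 to 0.165 for FZD10. FZD10-AS1, an antisense RNA of the FZD10 locus, differed by 0.105 and was also undetected. Which strand these probes read is not stated in the sources.

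Both LRP co-receptors, whose phosphorylated tails draw axin to the membrane, were higher on the miR-95 array. LRP6 read 9.49 in miR-95 cells and 9.22 in control cells, and LRP5 read 9.93 in miR-95 cells and 9.72 in control cells. Their differences were 0.235 (1.18-fold) and 0.175 (1.13-fold), each between 1 and 2 probe-set spreads. LRP6 shared its rank of 461st from the highest with FZD8, and LRP5 ranked 725th.

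R-spondins are secreted proteins that strengthen Wnt signalling by binding LGR receptors and removing the ubiquitin ligases RNF43 and ZNRF3, which otherwise clear Frizzled from the surface. None of the 4 R-spondins was detected, and their differences ran from -0.205 (RSPO1 and RSPO4) to 0.145 (RSPO3). The detected LGR receptors diverged. LGR5, a stem cell marker that is itself a Wnt target, read 10.08 in miR-95 cells and 9.82 in control cells, 1.17-fold higher after centring. LGR4, its more widely expressed relative, read 9.25 in miR-95 cells and 9.37 in control cells, a difference of -0.155. LGR6 was below the detection rule on both arrays, at -0.055.

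RNF43 gave the largest difference of all 51 members, but from values below the detection rule. It read 5.28 in miR-95 cells and 5.96 in control cells, a difference of -0.715 or 1.64-fold lower. No other member passed 1.5-fold. Of the 6783 genes below the rule 0.988% were at least 1.5-fold lower, and 0.68% lay at least as far from 0 as RNF43 in either direction. The robust SD of differences among such dim genes was 0.193. ZNRF3, which has the same function, was detected and read 9.17 in miR-95 cells and 9.25 in control cells. Its difference of -0.115 was smaller than the probe-set spread.

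**Figure D2:**
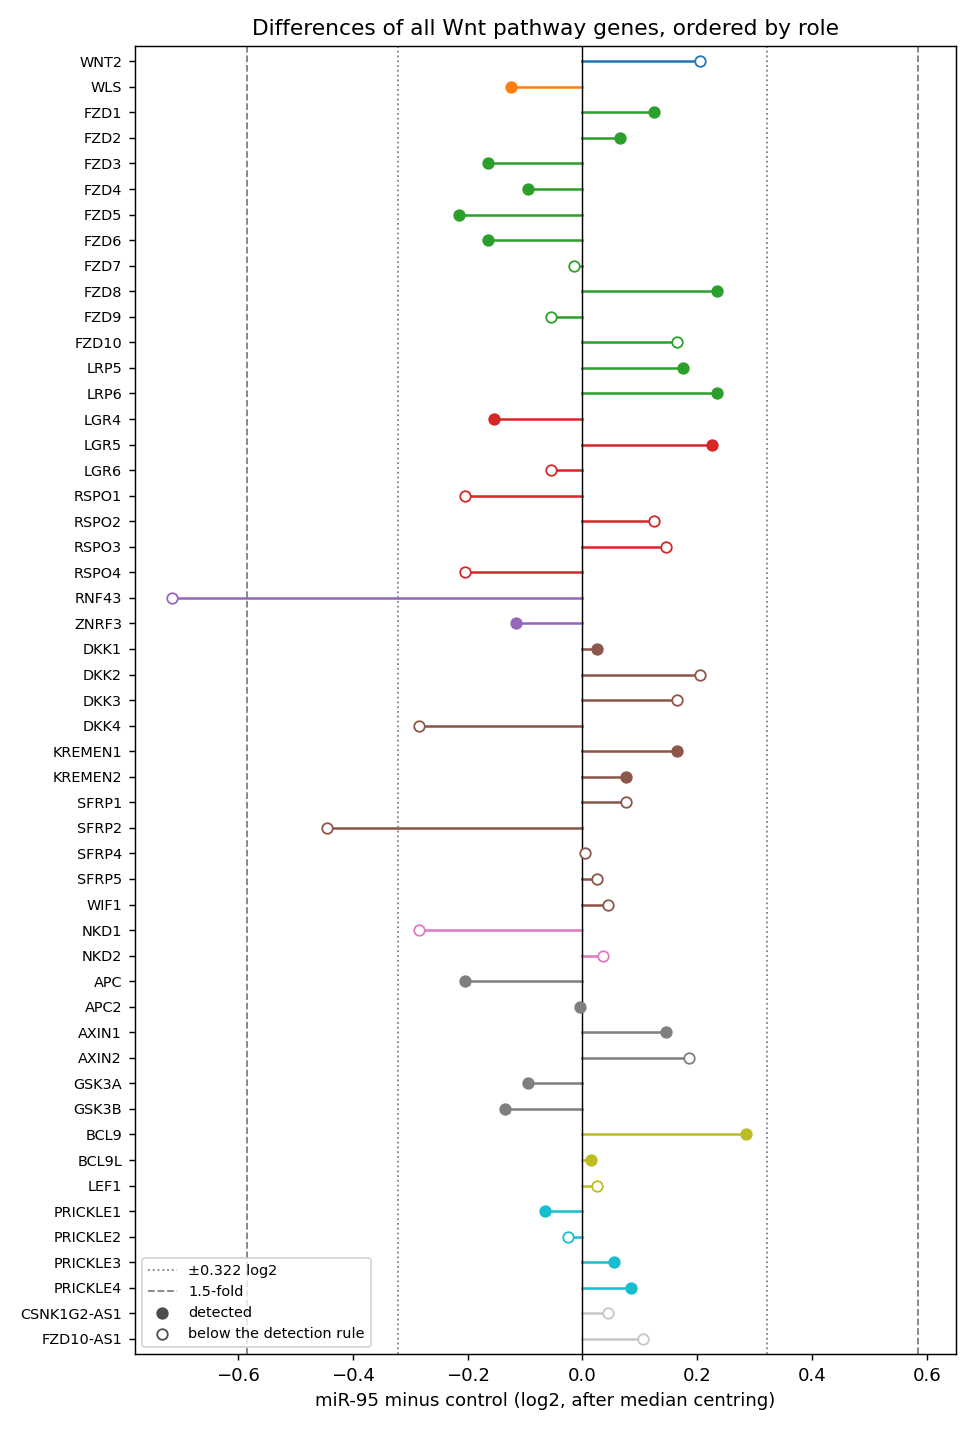
Difference between the miR-95 and the control array (log2, after median centring) for all 51 Wnt pathway genes, ordered and coloured by role, with filled points for detected genes and open points for those below the detection rule. Every detected gene lies inside the dotted lines at 0.322 each way, and only RNF43 (-0.715, undetected) lies beyond the 1.5-fold lines (dashed).

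Among the antagonists, DKK1, a secreted inhibitor that binds LRP5 and LRP6 and is known for its role in prostate cancer bone lesions, read 13.01 in miR-95 cells and 12.95 in control cells. The difference of 0.025 was a small fraction of the probe-set spread. Its transmembrane partners differed by more. KREMEN1 read 8.09 in miR-95 cells and 7.89 in control cells, 1.12-fold higher, and KREMEN2 read 8.01 in miR-95 cells and 7.90 in control cells, 1.05-fold higher. The other 8 antagonists were below the detection rule, with 6 positive and 2 negative differences, where 45.8% of all genes below the rule were positive. They ran from -0.445 for SFRP2, a soluble Frizzled-like protein (4.96 in miR-95 cells and 5.37 in control cells), to 0.205 for DKK2. SFRP2 was the only one of these past 0.322, a limit that 7.3% of genes below the rule passed downwards. DKK4 differed by -0.285, DKK3, a divergent member of the Dickkopf family, by 0.165, and SFRP1, SFRP4, SFRP5 and WIF1 by 0.005 to 0.075.

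The promoters of the members were searched for the TCF and LEF core motifs CTTTGAT and CTTTGAA on both strands. The window ran from 250 bases before to 50 bases after each RefSeq gene start (GRCh38.p14), and 31 of the 51 members were matched. A motif was found in 1 of the 31 windows (3.2%), against 7.0% of 27305 windows of the same length over all genes. The match lay in the promoter of DKK1 on chromosome 10, plus strand, with its first base 95 bases before the start. It is shown as chr10:52314176-52314202 with the motif in capitals.
DKK1 promoter: cctcccagcgCTTTGAAatcccatccc
The match describes these letters and shows no binding. None of the 8 matched receptor promoters held either motif in this window. Of the feedback genes listed below, 3 were matched and 1 held a motif, which was DKK1. These windows are too few to compare the sets, given the 7.0% share over all genes.

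The destruction complex was represented by 6 scaffold and kinase genes. Of these, 5 were detected, 4 with negative differences and 1 positive. A positive difference was held by 40.6% of all detected genes, and by 49.4% as deposited. APC2, 1 of the 4, was positive as deposited (0.03). Whether the split of these 5 genes differs from that of all detected genes was not tested. Their median was -0.095, where all detected genes had -0.035. As deposited, the median was -0.06, where all detected genes had 0, and it was -0.055 after loess or quantile normalization. With no detection filter or with detection at the 25th percentile it was -0.05, where all genes so kept had -0.025. It was -0.09 with the brightest probe set. With detection at the 75th percentile it was -0.115, where all genes so kept had -0.045. APC, the tumour suppressor scaffold that helps to capture β-catenin, read 7.57 in miR-95 cells and 7.74 in control cells, a difference of -0.205 or 1.15-fold lower. The kinases GSK3A and GSK3B, which phosphorylate β-catenin, were both slightly lower. GSK3B read 11.70 in miR-95 cells and 11.80 in control cells, and GSK3A read 11.04 in miR-95 cells and 11.10 in control cells. Their differences of -0.135 and -0.095 were close to 1 probe-set spread. APC2, a relative of APC expressed mainly in the nervous system, read 7.54 in miR-95 cells and 7.51 in control cells. Its difference was -0.005 after centring and 0.03 as deposited, so its sign depended on the scaling.

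AXIN1, the constitutive scaffold of the complex, went the other way. It read 8.30 in miR-95 cells and 8.12 in control cells, a difference of 0.145. AXIN2, its inducible counterpart and a widely used readout of β-catenin activity, was below the detection rule at 7.35 in miR-95 cells and 7.13 in control cells. Its difference was 0.185, and 34.51% of genes below the rule lay at least as far from 0. NKD1 and NKD2, which bind dishevelled and damp the signal, were also undetected. NKD1 read 6.78 in miR-95 cells and 7.03 in control cells (-0.285), while NKD2 differed by 0.035. No annotated probe set was matched to a dishevelled gene, a tankyrase or a casein kinase 1 protein, and these were not analysed. CSNK1G2-AS1, an antisense RNA of a casein kinase locus, differed by 0.045 and was undetected.

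BCL9, the adaptor that links β-catenin to Pygopus proteins in the nucleus, had the largest difference of the detected members. It read 11.53 in miR-95 cells and 11.21 in control cells, 1.22-fold higher after centring, and ranked 292nd from the highest. Values at least as far from 0 were held by 11.65% of detected genes. Its paralog BCL9L read 9.99 in miR-95 cells and 9.94 in control cells, a difference of 0.015. LEF1, a DNA-binding partner of β-catenin, read 4.70 in miR-95 cells and 4.64 in control cells and was undetected. CTNNB1, which encodes β-catenin, and the TCF7 family were not analysed.

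Of the PRICKLE genes, cytoplasmic components of the planar cell polarity branch that do not act through β-catenin, 3 of 4 were detected and all lay within 1 probe-set spread of 0. PRICKLE1 read 9.53 in miR-95 cells and 9.56 in control cells (-0.065), and PRICKLE3 read 8.77 in miR-95 cells and 8.68 in control cells (0.055). PRICKLE4 read 7.54 in miR-95 cells and 7.42 in control cells (0.085), and was detected through the miR-95 array only. PRICKLE2 was undetected, at -0.025. The VANGL genes were not analysed.

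Receptors were then set beside the genes that β-catenin is known to induce as feedback. The 10 detected of 14 receptors (Frizzled, LRP5, LRP6, LGR4 and LGR6) split evenly, with 5 positive and 5 negative differences and a median of -0.015. Over all detected genes, 40.6% of differences were positive, 49.4% as deposited, and the median was -0.035. Of 8 feedback genes, 7 were measured and 3 detected, namely LGR5 (0.225), DKK1 (0.025) and ZNRF3 (-0.115), with a median of 0.025. The undetected feedback genes also went both ways, from RNF43 at -0.715 and NKD1 at -0.285 to LEF1 at 0.025 and AXIN2 at 0.185. Neither set lay to one side of 0 or of the median of all detected genes. Positive values of the LRP co-receptors, FZD8 and LGR5 stood beside negative values of FZD3, FZD5, FZD6 and LGR4. With LGR5 counted as a receptor, the receptors had a median of 0.065 and the remaining feedback genes -0.045, which turned the order of the sets round. With LGR5 left among the feedback genes, the order also turned after quantile normalization (0.0262 for receptors and 0.015 for feedback genes), with detection at the 25th percentile (-0.015 and -0.045) and at the 75th (0.065 and 0.025). The sets thus had no stable order. The difference between the sets was not tested.

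**Figure D3:**
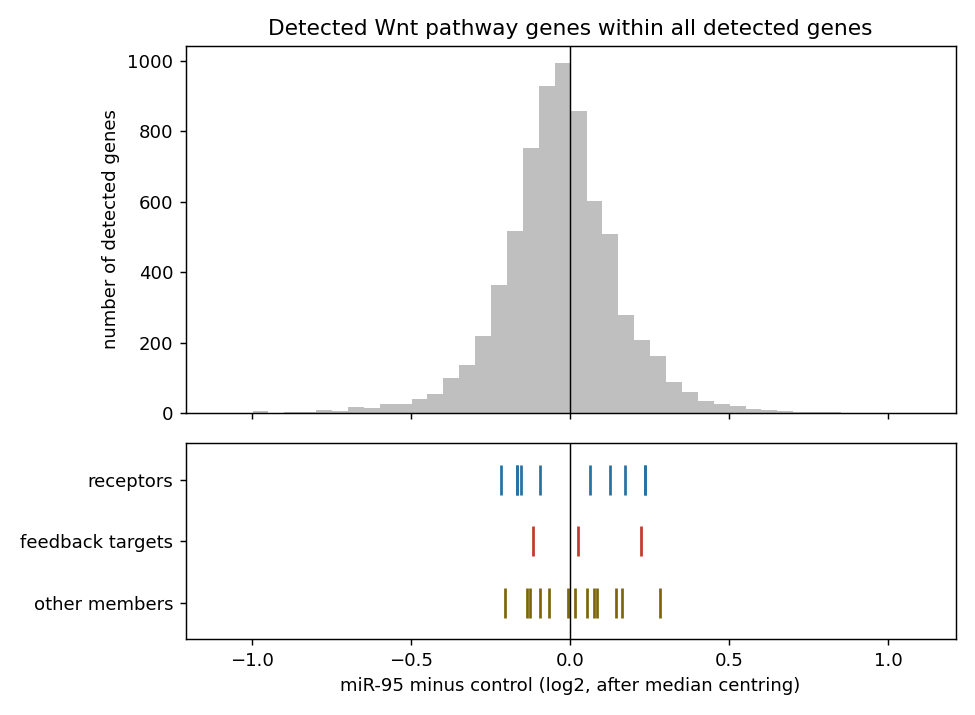
Upper panel, number of detected genes by their difference between the miR-95 and the control array (log2, after median centring, bins of 0.05). Lower panel, the detected Wnt pathway genes on the same axis, 1 tick per gene, as receptors, feedback targets and other members. All 26 ticks fall between -0.215 and 0.285, within the body of the distribution of the 7081 detected genes.

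A further 123 genes of the pathway that the symbol rule does not cover were listed by role. Of these, 86 were measured and 59 detected, with 21 positive and 38 negative differences and a median of -0.035, the same as over all detected genes. A positive difference was held by 35.6% of the 59, against 40.6% of all detected genes. Several of the negative genes, named with their lists below, were at or above 0 as deposited and negative only through the centring. The split thus leaned less to the negative side as deposited, where 49.4% of all detected genes were positive. None passed 1.5-fold upwards and 2 passed it downwards, where 0.395% of all detected genes passed upwards and 0.861% downwards. Past 0.322 on the log2 scale there were 2 on the higher side and 5 on the lower, against 3.08% and 5.38% of all detected genes.

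Outside the cell and in the secretory route, 3 of 12 detected genes were positive and 9 negative (median -0.06). Of all detected genes, 40.6% were positive, with a median of -0.035. IGFBP4, equal on both arrays, and NDP, 0.01 as deposited, were negative only through the centring. GPC4, a cell-surface glypican that binds Wnt ligands, read 9.42 in miR-95 cells and 8.92 in control cells, 1.38-fold higher and 65th from the highest of all detected genes. CTHRC1, a secreted protein that stabilises Wnt and Frizzled complexes of the polarity branch, was 1.23-fold higher, and LRP4, a relative of LRP5 and LRP6, 1.16-fold higher. LRP4 read 7.69 in miR-95 cells and 7.44 in control cells, and was detected through the miR-95 array only. At the other end, RECK, a membrane protein that takes part in WNT7 signalling, was 1.19-fold lower and VPS26A, a retromer subunit that recycles WLS, 1.15-fold lower. TSPAN12, a co-receptor of FZD4, differed by -0.165.

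Among alternative receptors and the non-canonical branch, 3 of 8 detected genes (37.5%) were positive, where 40.6% of all detected genes were. None passed 0.322 (median -0.03). MAPK9, equal on both arrays, and RHOA, 0.01 as deposited, were negative only through the centring. PTK7, a polarity co-receptor, differed by 0.195, the WNT5A receptor ROR1 by 0.145 and the polarity scaffold SCRIB by 0.115. DAAM1, a formin downstream of dishevelled, differed by -0.195, the receptor RYK by -0.115 and CAMK2G by -0.065. The list was spread on both sides of 0 much as the Frizzled receptors were.

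Among cytoplasmic regulators, 3 of 11 detected genes (27.3%) were positive and 8 negative (median -0.035), where 40.6% of all detected genes were positive. FRAT2 and USP7, each 0.03 as deposited, and FBXW11, equal on both arrays, were negative only through the centring. The lowest were GSKIP, a protein that binds and inhibits GSK3β, and BTRC, the F-box protein that recognises phosphorylated β-catenin for degradation. GSKIP read 9.63 in miR-95 cells and 10.05 in control cells, 1.37-fold lower, and ranked 129th from the lowest. BTRC read 9.50 in miR-95 cells and 9.83 in control cells, 1.29-fold lower. RNF146, a ubiquitin ligase that destabilises axin, differed by -0.135. On the positive side were the deubiquitinase CYLD (0.205), the zinc finger protein CXXC5 (0.135) and the APC-binding protein AMER1 (0.045). FBXW11, the paralog of BTRC with the same function, read 10.26 on both arrays, so its difference of -0.035 is the centring alone.

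Among nuclear regulators, 5 of 13 detected genes (38.5%) were positive (median -0.045), where 40.6% of all detected genes were. RUVBL1, 0.01 as deposited, was negative only through the centring. NLK, a kinase that phosphorylates TCF and LEF factors, read 10.91 in miR-95 cells and 10.37 in control cells, 1.42-fold higher and 54th from the highest. This was the largest positive difference among the 59 detected genes of these lists. SOX7, which can restrain β-catenin activity, differed by 0.265 and the corepressor TLE5 by 0.065. HIPK2, a kinase that acts on several transcription factors, was 1.24-fold lower. CHD8, a chromatin remodeller, and PYGO2, the Pygopus partner of BCL9, each differed by -0.155.

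Of 30 reported target genes, 24 were measured and 15 detected, 7 positive and 8 negative (median -0.015). FOSL1 and MMP14, each 0.02 as deposited, were negative only through the centring, so which sign held the majority depended on it. The positive share was 46.7%, against 40.6% of all detected genes. Both genes past 1.5-fold belonged here. CCND1, which encodes cyclin D1, read 11.08 in miR-95 cells and 11.67 in control cells, 1.54-fold lower. CLDN1, a tight junction protein, read 8.16 in miR-95 cells and 8.72 in control cells, 1.51-fold lower. Its difference as deposited, -0.56, fell short of 1.5-fold, while that of CCND1, -0.59, still passed. The surface receptor CD44 followed at -0.325. The positive targets were smaller in size, with the receptor EPHB3 at 0.205, the nuclear receptor PPARD at 0.175 and the transcription factor SOX9 at 0.145. MYC, a classical target, read 9.12 in miR-95 cells and 8.95 in control cells, a difference of 0.135. All of these genes have other regulators besides β-catenin.

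**Figure D4:**
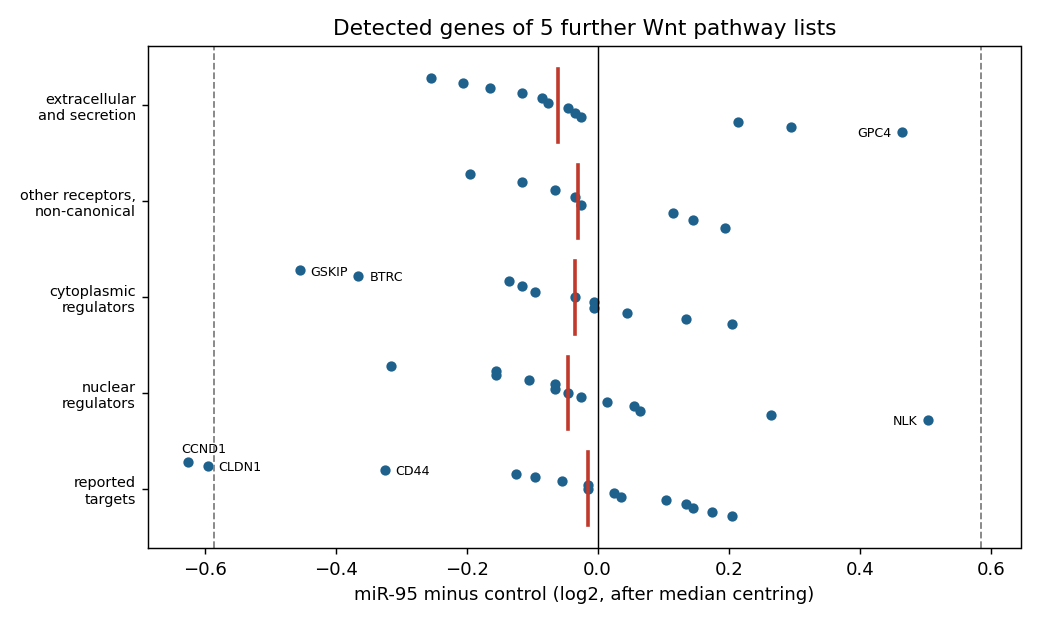
Difference between the miR-95 and the control array (log2, after median centring) for the detected genes of 5 further Wnt pathway lists, 1 point per gene in order of value, with the list median as a red bar and 1.5-fold as dashed lines. Named genes lie beyond 0.322 each way, and CCND1 (-0.625) and CLDN1 (-0.595) lie beyond 1.5-fold. NOTUM and APCDD1 are in more than 1 list and were undetected.

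Over the 26 detected members, Spearman's rho between the difference and the genomic span of the gene was -0.108, against -0.238 over all detected genes. Both are across genes, which are not independent replicates. The 14 with a positive difference had a median span of 20681 bases and the 12 with a negative one 93438 bases in RefSeq, although LRP5, LRP6 and LGR5, all positive, are long genes. The same medians were not taken over all detected genes, so the contrast cannot be called particular to the members. The part of gene span in these differences was not tested.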

How the data were processed

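RNA from 2 PC3 cultures, 1 per group, was measured on an Affymetrix gene array. The authors' deposited table holds log2 values for 23641 probe sets on both arrays; the scale was read from the values. The submitters' processing notes name Affymetrix Expression Console 1.2. For summarisation, scaling and genome build the method was not given in the sources used here. Such scaling can hide a shift of all transcripts. Of the probe sets, 14088 (59.6%) carry 1 gene symbol and 0 several; the other 9553 entered no gene comparison. Every symbol was matched to RefSeq (GRCh38.p14) by Entrez identifier. Probe sets of a gene were averaged, arrays centred on their medians, and genes kept where either value reached its array's median (the 50th percentile). The probe-set spread is the median range of differences over 68 genes with several probe sets, scaled to an SD. Counts at 1.5-fold are descriptions; no test was possible. All detected members are named, with undetected ones past 1.5-fold, in the feedback set or at the ends of a role group, and up to 3 genes each way per further list; other genes were named after their values were seen. Members and lists were chosen with earlier results of these data known. The number of arrays limits the precision. Alternatives were no centring, loess (span 0.4), quantile normalization, the brightest probe set, other detection rules, a fold limit of 0.322 on the log2 scale and LGR5 as a receptor. The steps were tested on simulated data. Python 3.11.15, pandas 2.3.3 and statsmodels 0.14.6 were used.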

Additional observations from a re-analysis of the deposited data

How the results depend on the processing

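No paired analysis was possible because each group holds 1 array. The count of Wnt members at least 1.5-fold higher stayed at 0 under all alternatives tried, and no detected member changed sign except APC2, which was positive as deposited (0.03) and after loess (0.0051) and 0 with the brightest probe sets. The members at least 1.5-fold lower numbered 1 (RNF43) with no detection filter or with detection at the 25th percentile. Positive members numbered 29 of 51 with no filter, 22 of 41 at the 25th percentile and 8 of 15 at the 75th, where the main count was 14 of 26. With detection on the mean of the arrays, PRICKLE4 dropped out and 13 of 25 were positive. The median of the PRICKLE genes was then -0.005, where it was 0.055 in the main analysis. At the 75th percentile it was -0.065, the value of PRICKLE1, the only PRICKLE gene kept. With RNF43 included, under both of the wider filters, the median of RNF43 and ZNRF3 was -0.415, where the main analysis had -0.115. R-spondins and LGR receptors had a median of -0.155 at the 25th percentile and -0.055 with no filter, where the main analysis had 0.035. Of the further pathway genes, 1 was at least 1.5-fold lower as deposited, after loess, after quantile normalization and at the 75th percentile. At the lower limit of 0.322 on the log2 scale 2 were higher and 5 lower. Of the 26 members detected in the main analysis, BCL9 alone passed this lower limit, and only after loess (0.3236). The median over detected members ran from 0.015 to 0.0553, the receptors' from -0.035 to 0.065 and the feedback targets' from -0.045 to 0.06, so the last 2 changed sign within less than the probe-set spread. The cause of these shifts was not tested beyond what the filters add or remove. RNF43, AXIN2, NKD1 and the other undetected members lay below the median of both arrays, which limits what their values show. That rule does not measure background. AXIN2, for 1, read 7.35 in miR-95 cells, where the median was 7.495.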
